A study of Homo sapiens with 10 samples.

Results

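The unfolded protein and ATF4 stress genes are 37 human genes taken by function: the chaperones, sensors and degradation factors of the endoplasmic reticulum (ER) and the genes that follow the transcription factor ATF4. They were found by symbol in the deposited expression table, which holds 60642 genes, and all 37 were present and passed the filter of 1 TPM or more in 2 or more samples (TPM being the length-normalised share of all transcripts), as did 17520 genes in all. The rule that lists them uses no expression value. For the description below, 23 genes form the secretory side (14 chaperones and folding factors, 5 sensors and transcription factors, 4 degradation genes) and 14 form the ATF4 side (7 regulators and stress targets, 7 enzymes of amino acid and one-carbon metabolism).

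RNA from 5 established prostate cancer cell lines was sequenced, with 2 biological repeats of each line and 10 samples in all. LNCAP was derived from a lymph node metastasis, DUCAP from the dura mater and VCAP from a vertebral metastasis of the same patient, DU145 from a brain metastasis and PC3 from a bone metastasis. All 10 cultures were untreated and grew exponentially in phenol red-free RPMI medium with fetal bovine serum, with no genetic change or agent in any of them. Each line is a single cell population without stroma and stands for itself only. Every p-value below thus rests on the spread between repeats, pooled over the 5 lines. It says nothing of prostate cancers as a class.

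Proteins that enter the ER are folded by chaperones such as HSPA5, also called BiP or GRP78. When unfolded clients accumulate, the sensors ERN1 (IRE1), ATF6 and EIF2AK3 (PERK) raise chaperone and degradation genes through spliced XBP1 and cleaved ATF6, while EIF2AK3 phosphorylates eIF2 alpha. That phosphorylation, which kinases for amino acid shortage, heme shortage and viral RNA also carry out, slows translation and raises translation of the ATF4 protein, which then switches on amino acid synthesis and stress genes. Prostate luminal cells secrete large amounts of protein and are known for a well developed secretory pathway. The TPM measured here are mRNA levels, so XBP1 splicing, ATF6 cleavage, eIF2 alpha phosphorylation and ATF4 protein were not measured.

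The promoters of some of these genes carry the elements by which the 2 arms are recognised, and 6 are printed because they show those elements next to genes that the results turn on. A window of 250 bases upstream of the RefSeq transcription start (GRCh38.p14) was matched for 34 of the 37 genes, and PDIA3, PSPH and SHMT2 had no entry. Capitals mark the fixed letters of a motif found on either strand, and positions are counted back from the start. HSPA5 (chr9:125241344-125241593, minus strand) and CRELD2 (chr22:49918384-49918633, plus strand) carry the ER stress response element. SDF2L1 (chr22:21642052-21642301, plus strand) carries its shorter second form, ERSE-II. HERPUD1 (chr16:56931892-56932141, plus strand) carries ERSE-II together with a C/EBP-ATF response element, the composite site to which ATF4 dimers bind. ASNS (chr7:97872409-97872658, minus strand) and CHAC1 (chr15:40953221-40953470, plus strand) carry that composite element alone.
HSPA5: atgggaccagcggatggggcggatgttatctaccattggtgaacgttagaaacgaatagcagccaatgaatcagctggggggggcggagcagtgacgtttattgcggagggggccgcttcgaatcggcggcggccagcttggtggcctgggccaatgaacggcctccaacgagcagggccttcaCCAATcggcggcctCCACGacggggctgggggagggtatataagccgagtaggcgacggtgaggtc
CRELD2: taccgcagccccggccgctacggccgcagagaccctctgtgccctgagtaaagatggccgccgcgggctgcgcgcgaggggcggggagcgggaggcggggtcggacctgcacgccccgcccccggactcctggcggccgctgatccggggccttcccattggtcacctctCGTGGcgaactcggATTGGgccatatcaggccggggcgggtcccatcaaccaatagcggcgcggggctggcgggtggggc
SDF2L1: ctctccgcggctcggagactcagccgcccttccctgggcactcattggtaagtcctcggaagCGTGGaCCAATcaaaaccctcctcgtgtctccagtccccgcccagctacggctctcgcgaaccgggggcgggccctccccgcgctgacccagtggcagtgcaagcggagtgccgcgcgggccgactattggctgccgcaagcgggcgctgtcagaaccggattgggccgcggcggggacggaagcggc
HERPUD1: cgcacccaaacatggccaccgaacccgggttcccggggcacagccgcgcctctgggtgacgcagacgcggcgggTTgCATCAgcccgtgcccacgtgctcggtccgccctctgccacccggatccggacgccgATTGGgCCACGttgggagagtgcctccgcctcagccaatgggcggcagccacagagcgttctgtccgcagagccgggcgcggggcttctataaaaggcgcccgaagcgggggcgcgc
ASNS: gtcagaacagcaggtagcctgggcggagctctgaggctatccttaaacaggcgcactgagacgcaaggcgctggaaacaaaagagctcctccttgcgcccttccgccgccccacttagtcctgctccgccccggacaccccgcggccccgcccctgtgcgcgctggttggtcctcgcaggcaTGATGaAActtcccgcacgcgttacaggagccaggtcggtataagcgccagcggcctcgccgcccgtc
CHAC1: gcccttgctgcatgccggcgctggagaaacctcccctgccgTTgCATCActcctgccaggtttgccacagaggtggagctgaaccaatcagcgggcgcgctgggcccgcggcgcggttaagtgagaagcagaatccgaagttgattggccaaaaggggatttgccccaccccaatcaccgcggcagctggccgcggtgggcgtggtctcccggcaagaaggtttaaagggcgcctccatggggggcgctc

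The ER stress response element (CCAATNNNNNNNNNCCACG, both strands searched) was found in 6 of the 22 secretory-side promoters, those of HSPA5, HSP90B1, CALR, CANX, XBP1 and CRELD2, and in 0 of the 12 ATF4-side promoters. Among 27305 RefSeq promoters of the same length 0.0806% held it. In HSPA5 it lay at -66 to -48, in CRELD2 at -80 to -62 on the opposite strand, and HSP90B1 held 2 copies. ERSE-II (ATTGG, any base, then CCACG) was found in SDF2L1, HERPUD1 and HYOU1 against 0.0513% of all promoters. The core of the unfolded protein response element (TGACGTGG) was found in HYOU1 only, where it overlapped 1 of its 2 ERSE-II copies, against 0.667% of all promoters. The C/EBP-ATF element (TGATGNAA) was found in ATF3, CHAC1 and ASNS on the ATF4 side and in HERPUD1 on the secretory side, against 3.19% of all promoters. These are matches of letters in a window, and binding was not measured.

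The luminal genes KLK3 and KLK2 were at 1636 to 2625 TPM and 180 to 2482 TPM in LNCAP and DUCAP, VCAP had KLK3 at 28.3 to 45.3 TPM with KLK2 at 4821 to 8172 TPM, and all 4 samples of DU145 and PC3 were under 1 TPM for both. The luminal genes TMPRSS2 and FOLH1 did not follow that split throughout: PC3 had 18.9 and 22.7 TPM of TMPRSS2 and 4.97 and 40.9 TPM of FOLH1, and DUCAP had FOLH1 at only 1.77 and 1.99 TPM. ERG, the fusion gene of VCAP and DUCAP, was at 122 to 199 TPM there and at 0.19 TPM or less in the other 6. The leukocyte genes PTPRC, CD3E and LYZ were at 0.18 TPM or less in all 10 samples. The share of TPM taken by mitochondrially encoded genes was 32.1% to 36.0% in DUCAP and VCAP and 12.7% to 22.5% in the other lines, which lowers the TPM of nuclear genes in DUCAP and VCAP by construction, so the comparisons are also given without those genes and after rescaling.

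Differences between the lines were tested with limma on log2(TPM + 1), and a gene was called at an adjusted p under 0.05 over the 17520 genes. The spread was pooled over the 5 lines, although the repeats of DU145 differed more. There 9.47% of all tested genes were at least 2-fold apart, against 0.908% to 2.12% in the other lines. Adjusted p-values for DU145 can therefore be too small. The lines differed in 36 of the 37 genes, with SEL1L the exception (adjusted p = 0.14), at a background of 90.8% of all tested genes. The main contrasts set each line against the mean of the other 4. They share samples, so 1 gene high in LNCAP pulls the other lines' contrasts down, and the values stand side by side without being independent.

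**Figure D1:**
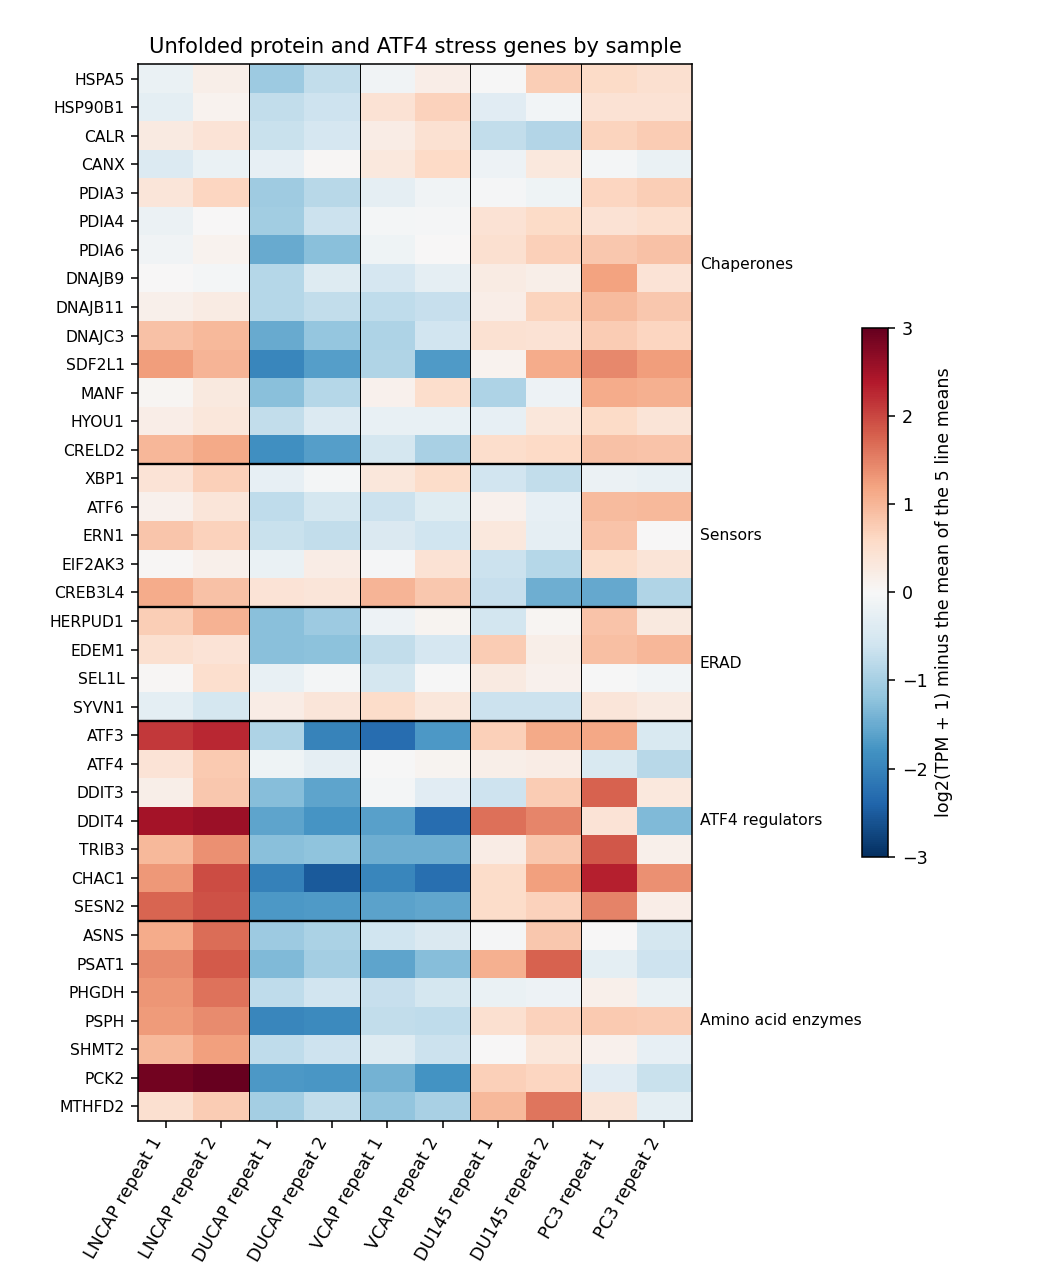
Heat map of the 37 genes (rows, by role) in the 10 samples (columns, 2 repeats of each line). Colour is log2(TPM + 1) minus the mean of the 5 line means, from blue (-3) to red (3). The ATF4-side rows are darkest, red in LNCAP and blue in DUCAP and VCAP, while the chaperone rows are bluest in DUCAP and reddest in PC3.

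In LNCAP 23 genes were higher and 1 was lower (SYVN1), at backgrounds of 38.2% higher and 24.2% lower. Of the 14 ATF4-side genes 13 were higher and 0 lower, while the secretory side had 10 of 23 higher. The median log2 fold change was 1.80 on the ATF4 side and 0.33 on the secretory side, beside 0.18 over all tested genes. In DUCAP the picture was the opposite, with 1 gene higher (SYVN1) and 30 lower at backgrounds of 11.1% and 57.7%. There 13 of 14 ATF4-side genes and 17 of 23 secretory-side genes were lower, with medians of -1.66 and -0.87 beside -0.54 over all genes. In VCAP 6 genes were higher and 18 lower at backgrounds of 17.3% and 46.6%, of which 0 of 14 and 11 of 14 were on the ATF4 side and 6 of 23 and 7 of 23 on the secretory side. In DU145 15 genes were higher and 6 lower at backgrounds of 40.7% and 22.3%, so the higher count was near its background. On the ATF4 side of DU145, 8 of 14 were higher and 0 lower. In PC3 23 genes were higher and 4 lower at backgrounds of 43.2% and 24.7%, with 18 of the 23 on the secretory side.

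These splits depended on the scaling, and the median of all genes moved with it. After median-ratio scaling the all-gene median log2 fold change moved from 0.18 to -0.07 in LNCAP, from -0.54 to -0.10 in DUCAP, from -0.36 to -0.08 in VCAP, from 0.23 to -0.03 in DU145 and from 0.26 to -0.05 in PC3. The members higher and lower then numbered 20 and 5 for LNCAP, 9 and 10 for DU145, 14 and 10 for PC3, 7 and 19 for DUCAP and 11 and 14 for VCAP. Over all genes, the shares higher and lower became 27.8% and 32.5% for LNCAP, 30.3% and 32.1% for DU145, 31.8% and 33.9% for PC3, 26.0% and 33.9% for DUCAP and 27.8% and 33.1% for VCAP. Quantile normalization gave 21 and 4, 8 and 11, 14 and 11, 5 and 22, and 10 and 14 members in the same order of lines, beside shares over all genes of 29.7% and 30.7%, 28.0% and 35.9%, 29.2% and 36.1%, 28.8% and 29.4%, and 28.8% and 32.6%. Leaving out the mitochondrial genes gave 23 and 2, 13 and 8, 20 and 6, 2 and 30, and 8 and 16, beside 34.5% and 27.0%, 36.8% and 25.4%, 36.4% and 29.4%, 14.7% and 48.9%, and 24.0% and 37.1% of all genes. The ATF4-side median kept its sign in LNCAP (1.49 after median-ratio scaling), DUCAP (-1.04), VCAP (-1.18) and DU145 (0.48) under all of these, whereas after median-ratio scaling the secretory-side median turned from -0.08 to 0.32 in VCAP and from 0.05 to -0.24 in DU145, and the ATF4-side median of PC3 turned from 0.02 to -0.37.

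Leaving out PC3 repeat 1 lowered the count of genes higher in PC3 from 23 to 14, while the share of all genes higher there fell from 43.2% to 34.2%, and the count of genes lower in PC3 fell from 4 to 2 without PC3 repeat 2. The single gene higher in DUCAP was lost without DUCAP repeat 2, and the single gene lower in LNCAP without LNCAP repeat 2. The other changes of over 1.5 times when a sample was left out were from 1 to 2, for genes lower in LNCAP without VCAP repeat 1, DU145 repeat 1 or DU145 repeat 2 and for genes higher in DUCAP without DU145 repeat 1 or PC3 repeat 2.

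The order of the lines gives the same values without a test. LNCAP had the highest mean for 18 of the 37 genes and PC3 for 14, against 26.8% and 29.7% of all tested genes. DUCAP had the highest mean for 0, against 5.34% of all tested genes, so that count was near its background. DUCAP had the lowest mean for 24, against 37.1% of all tested genes, and 12 of these 24 were chaperones. Of the 14 chaperones 9 were highest in PC3, while 11 of the 14 ATF4-side genes were highest in LNCAP.

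The sensors and their transcription factors had no common direction. ERN1, the kinase and endonuclease that splices XBP1 mRNA, was at 10.7 and 9.56 TPM in LNCAP, 7.25 and 4.45 in DU145, 11.0 and 5.59 in PC3, 3.15 and 2.97 in DUCAP and 3.87 and 3.32 in VCAP. Both DUCAP and both VCAP samples were below the other 6, and the PC3 repeats overlapped both LNCAP and DU145. ATF6, the sensor that is cut in the Golgi to free a transcription factor, was at 22.1 and 22.4 TPM in PC3 and at 6.07 to 14.4 TPM elsewhere, a log2 fold change of 1.19 ± 0.15 (SE, adjusted p = 0.00015) in PC3. EIF2AK3 was lowest in DU145, at 9.38 and 7.99 TPM against 13.2 to 22.8 TPM in the other 8 samples. Set against the mean of the other 4 lines, DU145 had a log2 fold change of -0.95 ± 0.16 for it (adjusted p = 0.0012).

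XBP1, the factor whose spliced form drives ER expansion in secretory cells, was at 136 and 168 TPM in LNCAP, 67.8 and 60.9 in DU145, 90.6 and 87.4 in PC3, 85.7 and 98.4 in DUCAP and 130 and 151 in VCAP. All 4 samples of LNCAP and VCAP lay above the other 6. CREB3L4, an ER-tethered factor of the same class as ATF6 that is expressed in prostate epithelium, was at 110 and 93.7 TPM in LNCAP, 30.7 and 17.7 in DU145, 16.8 and 26.4 in PC3, 67.6 and 65.7 in DUCAP and 104 and 89.9 in VCAP. Its 6 samples of LNCAP, DUCAP and VCAP did not overlap the 4 samples of DU145 and PC3. When LNCAP, DUCAP and VCAP were set against DU145 and PC3, CREB3L4 was higher by 1.92 ± 0.18 (SE, adjusted p = 1.9e-05), XBP1 by 0.72 ± 0.10 (adjusted p = 0.00019), and both were among only 4 members higher in that contrast, with SYVN1 and ATF4, at a background of 22.5%. In the same contrast 22 members were lower at a background of 51.9%. After median-ratio scaling these counts were 11 higher and 14 lower, the all-gene median moved from -0.40 to -0.01, and the shares over all genes moved to 35.4% and 37.3%. Quantile normalization gave 10 higher and 13 lower, beside 39.4% and 33.9% of all genes. Leaving out the mitochondrial genes gave 8 and 18, beside 28.2% and 44.7%. Without PC3 repeat 2 the 4 higher became 2, beside 20.1% of all genes.

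**Figure D2:**
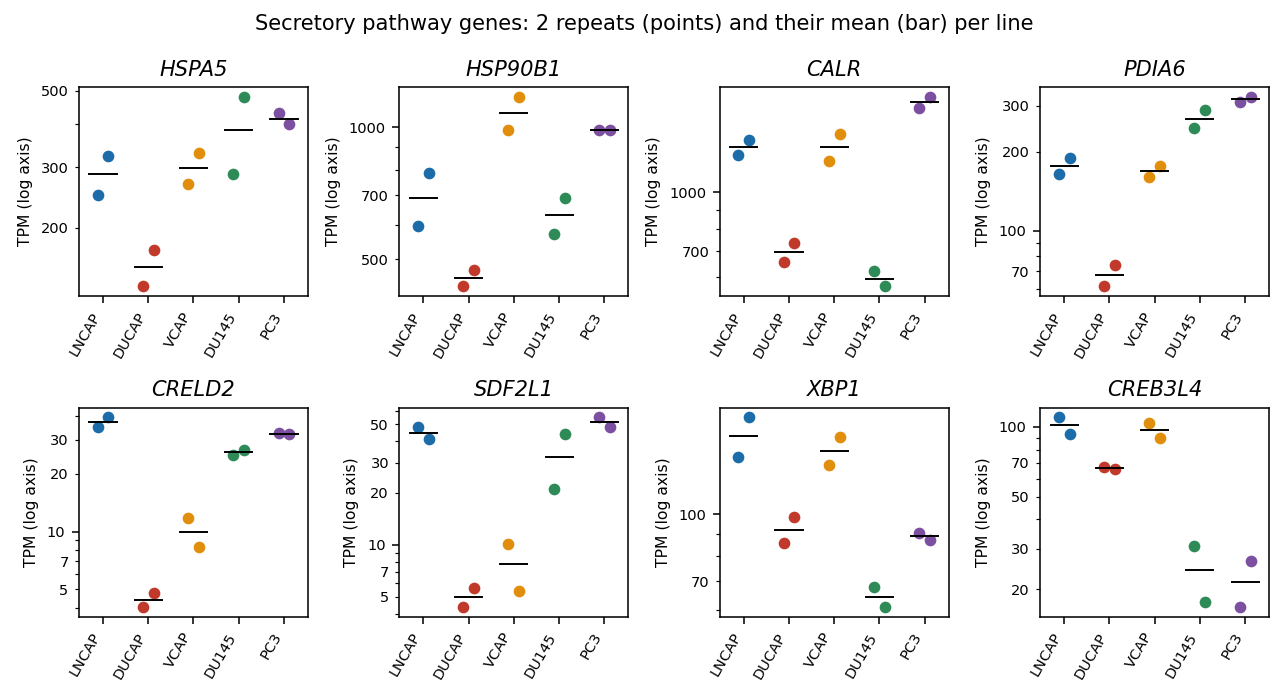
TPM on a log axis of 8 secretory-side genes, with the 2 repeats of each line as points and their mean as a bar. PDIA6, CRELD2 and SDF2L1 were lowest in DUCAP, while CREB3L4 was under 31 TPM in DU145 and PC3 and above 65 TPM in the other lines.

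The chaperones and folding factors were the most abundant members. Their summed level was 3890 and 4567 TPM in LNCAP, 3164 and 3821 in DU145, 5683 and 5734 in PC3, 2214 and 2591 in DUCAP and 4183 and 4926 in VCAP. As a share of non-mitochondrial TPM the sums were 0.347% and 0.385% in DUCAP, 0.414% and 0.459% in DU145, 0.493% and 0.571% in LNCAP, 0.659% and 0.760% in VCAP and 0.662% and 0.685% in PC3. DUCAP stayed lowest on that scale, and VCAP and PC3 overlapped. PC3 had 13 of 14 higher and 0 lower, and DUCAP had 13 of 14 lower and 0 higher, with CANX the exception each time. The backgrounds were 43.2% of all tested genes higher and 24.7% lower in PC3, and 11.1% higher and 57.7% lower in DUCAP. After median-ratio scaling 9 were higher and 1 lower in PC3, and 8 were lower and 1 higher in DUCAP. Over all genes the shares higher and lower were then 31.8% and 33.9% in PC3 and 26.0% and 33.9% in DUCAP. The direction of the group thus held while single calls were lost.

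HSPA5, the ER member of the HSP70 family, was at 249 and 324 TPM in LNCAP, 287 and 481 in DU145, 430 and 400 in PC3, 135 and 172 in DUCAP and 269 and 329 in VCAP. Both DUCAP samples were below the other 8. Among these LNCAP, VCAP and DU145 overlapped, and both PC3 samples lay between the 2 DU145 repeats. The log2 fold change was -1.14 ± 0.20 in DUCAP (SE, adjusted p = 0.0013) and moved to -0.49 after median-ratio scaling (adjusted p = 0.050, no longer under the threshold). CALR, the calcium-binding lectin chaperone, was at 1247 and 1371 TPM in LNCAP, 621 and 567 in DU145, 1656 and 1773 in PC3, 658 and 736 in DUCAP and 1207 and 1415 in VCAP. Both DU145 samples were lowest here, with a log2 fold change of -1.01 ± 0.10 against the mean of the other 4 lines (adjusted p = 5.5e-05), although DU145 was not low for HSPA5. HSP90B1, the ER form of HSP90, was at 984 and 1173 TPM in VCAP and at 983 and 986 TPM in PC3, above the 434 to 786 TPM of the other 6 samples. CANX, the membrane-bound lectin chaperone, ran from 383 to 774 TPM and was higher in VCAP only (0.56 ± 0.15, adjusted p = 0.011).

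SDF2L1, a partner of the ER HSP40 proteins, was at 48.1 and 41.0 TPM in LNCAP, 21.2 and 43.6 in DU145, 54.8 and 48.2 in PC3, 4.36 and 5.62 in DUCAP and 10.1 and 5.41 in VCAP. All 4 samples of DUCAP and VCAP were below the other 6, and its line means spanned 10.3-fold, the widest of the 14. CRELD2, a secreted ER stress protein, was at 35.0 and 39.2 TPM in LNCAP, 25.0 and 26.5 in DU145, 32.6 and 32.0 in PC3, 4.05 and 4.78 in DUCAP and 11.7 and 8.28 in VCAP, with the same separation. In DUCAP their log2 fold changes were -2.24 ± 0.28 for SDF2L1 (adjusted p = 0.00019) and -2.19 ± 0.14 for CRELD2 (adjusted p = 6.2e-06). Further members lower by at least 1 in DUCAP were PDIA6 (-1.72), DNAJC3 (-1.66), MANF (-1.32), PDIA3 (-1.18) and PDIA4 (-1.06), which are disulfide isomerases, an HSP40 co-chaperone and a secreted ER protein. In PC3 SDF2L1 (1.68), MANF (1.36), DNAJB11 (1.10), CRELD2 (1.09), PDIA6 (1.06) and DNAJB9 (1.01) were higher by at least 1. DNAJB9 came to 0.61 there without PC3 repeat 1 (adjusted p = 0.048). In LNCAP only SDF2L1 (1.42), CRELD2 (1.33) and DNAJC3 (1.16) reached that size among the chaperones. PDIA3 values may share reads with 2 pseudogene entries, which reached 46.3 TPM against at least 214 TPM for PDIA3. HYOU1, the GRP170 nucleotide exchange factor, stayed between 63.2 and 157 TPM.

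Of the 6 genes with an ER stress response element, HSPA5, HSP90B1, CALR and CRELD2 were lower in DUCAP and higher in PC3. CANX and XBP1 passed the test in neither line. The backgrounds were 57.7% of all tested genes lower in DUCAP and 43.2% higher in PC3. After median-ratio scaling HSPA5 lost its call in DUCAP (-0.49, adjusted p = 0.050). HSP90B1 (-0.21, adjusted p = 0.21) and CALR (-0.07, adjusted p = 0.59) lost theirs there too. In PC3 HSPA5 (0.26, adjusted p = 0.25) and HSP90B1 (0.14, adjusted p = 0.36) lost their calls. CRELD2 kept its call in both lines, and CALR in PC3. In DU145 the calls went both ways: CALR was lower by -1.01 and XBP1 by -0.83, CRELD2 was higher by 0.70, and HSPA5 (0.46, adjusted p = 0.078), HSP90B1 (-0.27, adjusted p = 0.11) and CANX (0.10, adjusted p = 0.60) did not pass the test.

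Among the ER-associated degradation genes, HERPUD1, which organises the degradation complex, was at 165 and 204 TPM in LNCAP, 67.8 and 103 in DU145, 181 and 121 in PC3, 41.1 and 46.1 in DUCAP and 88.7 and 105 in VCAP. Both DUCAP samples were lowest (-1.46 ± 0.20, adjusted p = 0.0003), and LNCAP was higher (1.10 ± 0.20, adjusted p = 0.0015) although its samples overlapped those of PC3. EDEM1, which extracts misfolded glycoproteins from the folding cycle, was at 4.69 and 4.75 TPM in DUCAP, 7.06 and 8.54 in VCAP and 14.2 to 26.1 in the other 6 samples. SYVN1, the ubiquitin ligase of the complex, ran the other way, at 70.2 to 89.0 TPM in DUCAP, VCAP and PC3 and 38.1 to 49.2 TPM in LNCAP and DU145. SEL1L, its adaptor, stayed between 19.8 and 41.4 TPM.

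ATF4 mRNA itself spanned less than the other genes of its branch. It was at 480 and 619 TPM in LNCAP, 409 and 419 in DU145, 261 and 200 in PC3, 330 and 300 in DUCAP and 359 and 380 in VCAP, a 2.39-fold span of line means. LNCAP was higher by 0.75 ± 0.13 (SE, adjusted p = 0.0014) and PC3 was lower by -0.82 ± 0.13 (adjusted p = 0.00072), while DUCAP (-0.24, adjusted p = 0.14) and VCAP (0.05, adjusted p = 0.75) did not pass the test. The line means of the 7 ATF4 regulators spanned a median of 22.7-fold. On a scale with 1 TPM added the median span was 11.6-fold, against 3.0-fold for the chaperones and 3.26-fold over all tested genes.

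**Figure D3:**
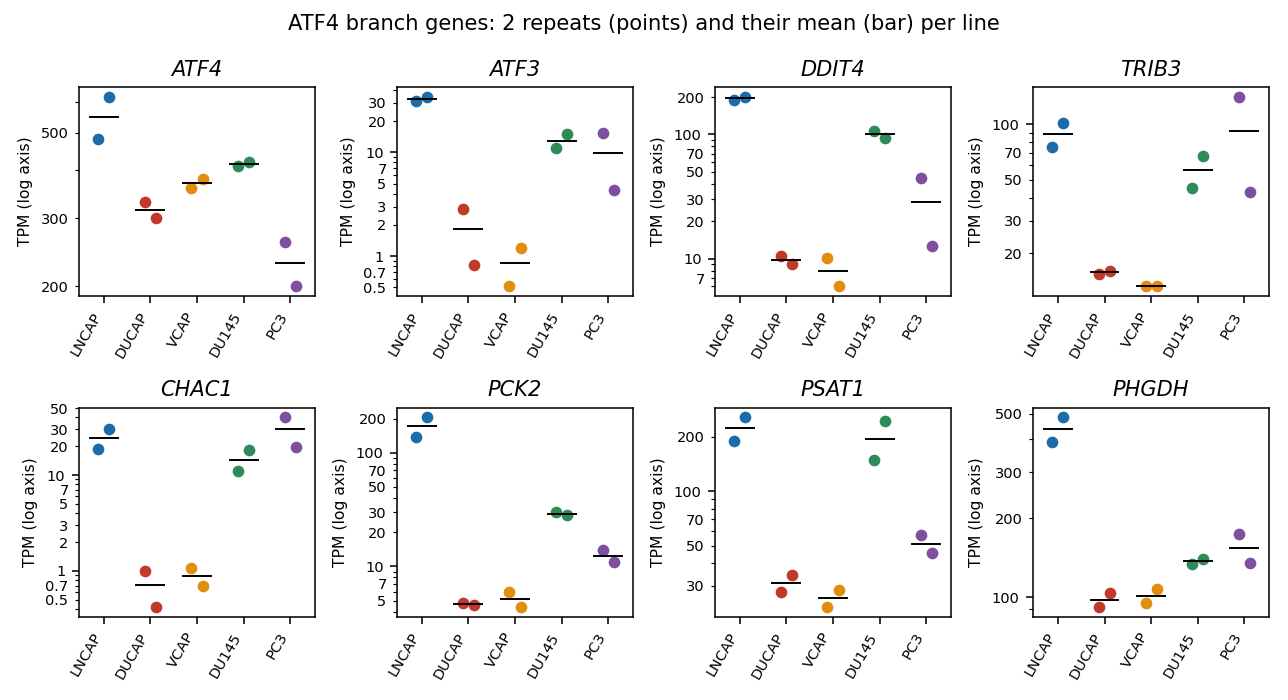
TPM on a log axis of ATF4 and 7 genes of its branch, with the 2 repeats of each line as points and their mean as a bar. ATF4 spans 200 to 619 TPM, whereas CHAC1 runs from 0.42 to 40.0 TPM and PCK2 from 4.38 to 205 TPM, with DUCAP and VCAP at the bottom of each of the 7 other panels.

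Several stress regulators were at a few TPM or less in DUCAP and VCAP. CHAC1, which degrades glutathione, was at 18.9 and 30.3 TPM in LNCAP, 10.9 and 18.1 in DU145, 40.0 and 19.8 in PC3, 1.00 and 0.42 in DUCAP and 1.08 and 0.70 in VCAP. SESN2, a leucine-binding inhibitor of mTORC1, was at 20.4 and 22.6 TPM in LNCAP, 8.23 and 9.15 in DU145, 16.8 and 6.23 in PC3, 0.93 and 0.96 in DUCAP and 1.07 and 1.16 in VCAP. In both genes all 4 samples of DUCAP and VCAP were below the other 6. Each set against the mean of the other 4 lines, DUCAP and VCAP had log2 fold changes of -2.83 ± 0.31 and -2.63 ± 0.31 for CHAC1 (adjusted p = 9.1e-05 and 0.00015). Adding 1 TPM before the logarithm understates the fold of genes this low.

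DDIT4, also known as REDD1 and another inhibitor of mTORC1, was at 191 and 201 TPM in LNCAP, 107 and 93.9 in DU145, 44.7 and 12.7 in PC3, 10.5 and 9.02 in DUCAP and 10.1 and 5.99 in VCAP. Both LNCAP samples exceeded every other sample. Against the mean of the other 4 lines the log2 fold change was 3.15 ± 0.38 in LNCAP (SE, adjusted p = 0.00016) and 1.96 ± 0.38 in DU145 (adjusted p = 0.0022). ATF3, a stress-induced repressor, was at 30.9 and 34.3 TPM in LNCAP, 10.9 and 15.0 in DU145, 15.3 and 4.31 in PC3, 2.86 and 0.82 in DUCAP and 0.51 and 1.21 in VCAP. The rise of ATF3 in LNCAP was 2.75 ± 0.42 (adjusted p = 0.00061). Its call in DU145 (1.14, adjusted p = 0.042) depended on single samples. It was lost when any of LNCAP repeat 1 or 2, DUCAP repeat 2, VCAP repeat 1 or 2, or DU145 repeat 1 or 2 was left out (0.93 to 1.36). Quantile normalization (0.78, adjusted p = 0.15) and median-ratio scaling (0.90, adjusted p = 0.11) lost it too. So did no filter (1.14, adjusted p = 0.094) and leaving out mitochondrial genes (1.13, adjusted p = 0.056).

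TRIB3, a pseudokinase that feeds back on ATF4, was at 75.7 and 101 TPM in LNCAP, 45.0 and 67.6 in DU145, 141 and 42.8 in PC3, 15.4 and 16.1 in DUCAP and 13.2 and 13.3 in VCAP. DDIT3, the factor CHOP that links prolonged ER stress to cell death, was at 34.5 and 53.8 TPM in LNCAP, 19.4 and 51.9 in DU145, 106 and 38.1 in PC3, 11.8 and 9.50 in DUCAP and 29.0 and 23.8 in VCAP. DDIT3 was the only member of the ATF4 side that did not pass the test in LNCAP (0.63 ± 0.43, adjusted p = 0.23), and VCAP overlapped DU145 in it. The rise of TRIB3 in LNCAP (1.46, adjusted p = 0.0087) fell to an adjusted p of 0.10 without LNCAP repeat 2. In DUCAP the falls of ATF3 (-1.83) and DDIT3 (-1.79) lost their calls without DUCAP repeat 2 (adjusted p = 0.074 and 0.057) and that of TRIB3 (-1.54) without DUCAP repeat 1 (adjusted p = 0.053). ATF3 also lost its call after quantile normalization (-1.12, adjusted p = 0.052), and TRIB3 after quantile normalization (-0.88, adjusted p = 0.059) and median-ratio scaling (-0.91, adjusted p = 0.056).

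The enzymes of amino acid and one-carbon metabolism were led by LNCAP, where 7 of 7 were higher, and 7 of 7 were lower in DUCAP. The backgrounds were 38.2% of all tested genes higher in LNCAP and 57.7% lower in DUCAP, and 27.8% and 33.9% after median-ratio scaling. After median-ratio scaling 6 stayed higher in LNCAP, without MTHFD2 (0.47, adjusted p = 0.072), and 4 stayed lower in DUCAP, without PHGDH (-0.18, adjusted p = 0.22), SHMT2 (-0.23, adjusted p = 0.16) and MTHFD2 (-0.45, adjusted p = 0.080). PCK2, the mitochondrial phosphoenolpyruvate carboxykinase, was at 138 and 205 TPM in LNCAP, 29.8 and 28.2 in DU145, 13.9 and 10.9 in PC3, 4.72 and 4.59 in DUCAP and 5.99 and 4.38 in VCAP. Both LNCAP samples lay above every other sample, the 36.8-fold span of line means was the widest of these enzymes, and the log2 fold change of 3.96 ± 0.18 (SE, adjusted p = 8.3e-07) was the largest of any member in LNCAP. PSAT1, an aminotransferase of serine synthesis, was at 190 and 256 TPM in LNCAP, 148 and 243 in DU145, 57.4 and 45.4 in PC3, 27.7 and 34.4 in DUCAP and 22.9 and 28.6 in VCAP. LNCAP and DU145 overlapped and stood above the other 3 lines. Each set against the mean of the other 4, their log2 fold changes were 2.04 ± 0.21 (adjusted p = 6.7e-05) and 1.77 ± 0.21 (adjusted p = 0.00014).

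PHGDH, the first enzyme of serine synthesis, was at 389 and 485 TPM in LNCAP, 134 and 140 in DU145, 174 and 135 in PC3, 91.7 and 104 in DUCAP and 95.1 and 107 in VCAP. PSPH, the last enzyme of that route, was at 55.8 and 62.2 TPM in LNCAP, 31.9 and 36.8 in DU145, 39.5 and 38.9 in PC3, 5.03 and 5.28 in DUCAP and 13.1 and 12.8 in VCAP. LNCAP was above the other 8 samples in both genes, and in PSPH the lines did not overlap at all. ASNS, asparagine synthetase, was at 120 and 179 TPM in LNCAP, 53.4 and 96.7 in DU145, 55.8 and 37.6 in PC3, 25.4 and 27.9 in DUCAP and 36.2 and 40.7 in VCAP. PC3 overlapped VCAP and DU145 for ASNS, and its contrast did not pass the test (-0.32, adjusted p = 0.28).

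SHMT2 and MTHFD2, the mitochondrial enzymes that pass serine carbon to folate, parted in their top line. SHMT2 was at 399 and 471 TPM in LNCAP and 118 to 254 TPM elsewhere, and MTHFD2 was at 141 and 219 TPM in DU145, 101 and 122 in LNCAP and 31.2 to 94.9 elsewhere. MTHFD2 was higher by 1.60 ± 0.22 in DU145 (SE, adjusted p = 0.00031). In PC3 the enzymes split, with PSPH higher (0.96, adjusted p = 7e-05), PSAT1 (-0.57, adjusted p = 0.040) and PCK2 (-0.62, adjusted p = 0.013) lower, and the other 4 not past the threshold.

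In 19 of the 37 genes all 4 samples of DUCAP and VCAP lay below the other 6, against 29.1% of all tested genes. Of these 19, 11 were among the 14 ATF4-side genes and 8 among the 23 secretory-side genes, the latter near that share. The pairing of the lines in that count was chosen after their values were seen. Both LNCAP samples lay above the other 8 in 11 of the 37 genes, against 19.6% of all tested genes, and 9 of the 11 were on the ATF4 side: ATF3, ATF4, DDIT4, SESN2, ASNS, PHGDH, PSPH, SHMT2 and PCK2. Both orders were read on the deposited TPM only, where the mitochondrial share lowers nuclear genes in DUCAP and VCAP by construction. In bulk RNA a lower level can also come from fewer expressing cells or from less RNA of that gene in each, which cannot be told apart here.

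Within a sample the 2 sides could be compared directly, since a factor common to all genes of a sample cancels apart from the 1 TPM added. Each gene was centred on the mean of the 5 line means, and the median of the 14 ATF4-side genes was subtracted from that of the 23 secretory-side genes. The difference was -1.13 and -1.30 in LNCAP, -0.52 and -0.64 in DU145, 0.27 and 0.74 in PC3, 0.43 and 0.73 in DUCAP and 1.14 and 1.10 in VCAP, on the log2 scale. LNCAP and DU145 were thus on the ATF4 side of zero, and the other 3 lines on the secretory side, with PC3 and DUCAP overlapping. DUCAP and PC3 reached similar differences from opposite levels, since the secretory median was -0.85 and -0.65 in DUCAP and 0.67 and 0.47 in PC3. VCAP had ATF4-side medians of -1.30 and -1.12, close to the -1.27 and -1.38 of DUCAP, but secretory medians of -0.16 and -0.02.

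**Figure D4:**
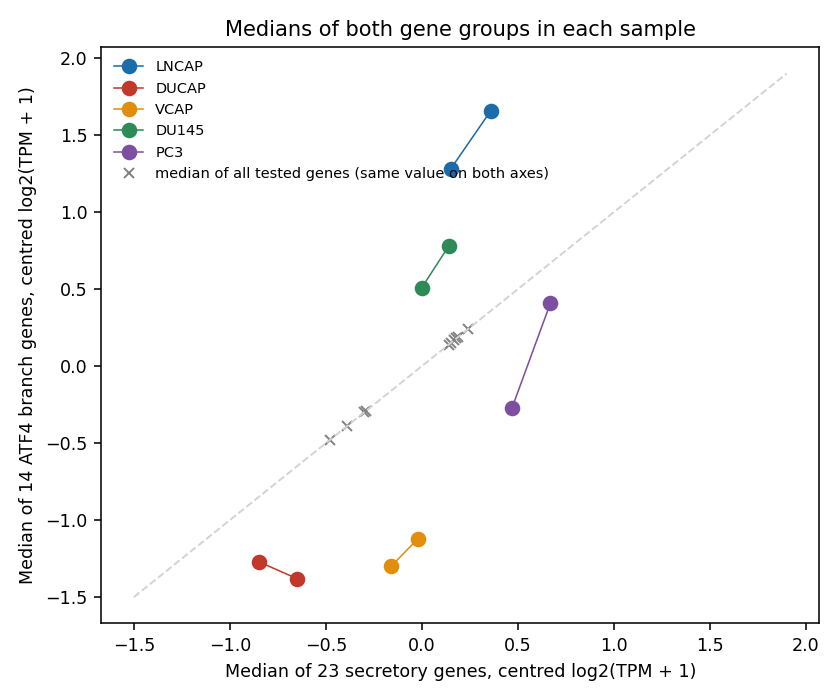
Median centred log2(TPM + 1) of the 23 secretory-side genes (x axis) and the 14 ATF4-side genes (y axis) in each of the 10 samples, with a line joining the 2 repeats of a cell line. Crosses give the median of all tested genes, from -0.48 to 0.24, drawn on the diagonal. LNCAP sits highest at 1.28 and 1.66 on the y axis, and DUCAP and VCAP sit below -1.1.

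The repeats of PC3 differed in the ATF4 branch. ATF3, DDIT3, DDIT4, TRIB3 and SESN2 were at least 2-fold higher in repeat 1 than in repeat 2 on the log2(TPM + 1) scale, 5 of 37 genes or 13.5% against 0.993% of all tested genes. The largest gap was 1.74 log2 units for DDIT4. Over the 14 ATF4-side genes the median gap was 0.62, against 0.09 on the secretory side and 0.03 over all genes. Without PC3 repeat 1 the calls in PC3 were lost for DDIT3 (0.59, adjusted p = 0.34), TRIB3 (0.41, adjusted p = 0.19) and SESN2 (0.40, adjusted p = 0.068), and DDIT3 also lost its call without LNCAP repeat 1 (adjusted p = 0.056). After quantile normalization the calls of DDIT3 (0.84, adjusted p = 0.11) and TRIB3 (0.77, adjusted p = 0.083) in PC3 were lost. SESN2 lost its call there too (0.66, adjusted p = 0.057). Median-ratio scaling lost those of DDIT3 (0.93, adjusted p = 0.081) and TRIB3 (0.87, adjusted p = 0.059). With no filter DDIT3 lost its call (adjusted p = 0.062). CHAC1, at 40.0 and 19.8 TPM in PC3, kept its call there. DU145 had 2 genes at least 2-fold apart between repeats, SDF2L1 and DDIT3, both higher in repeat 2, 5.41% against 9.47% of all tested genes. There the call of CHAC1 (1.12) was lost without DU145 repeat 2 (0.78) and after quantile normalization (0.78, adjusted p = 0.056). DUCAP had 1, ATF3, and LNCAP and VCAP had 0, where the median gap on the ATF4 side was -0.34 and -0.04. The mitochondrial share of the 2 PC3 repeats was 12.7% and 15.0%. Its part in the gap was not tested.

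**Figure D5:**
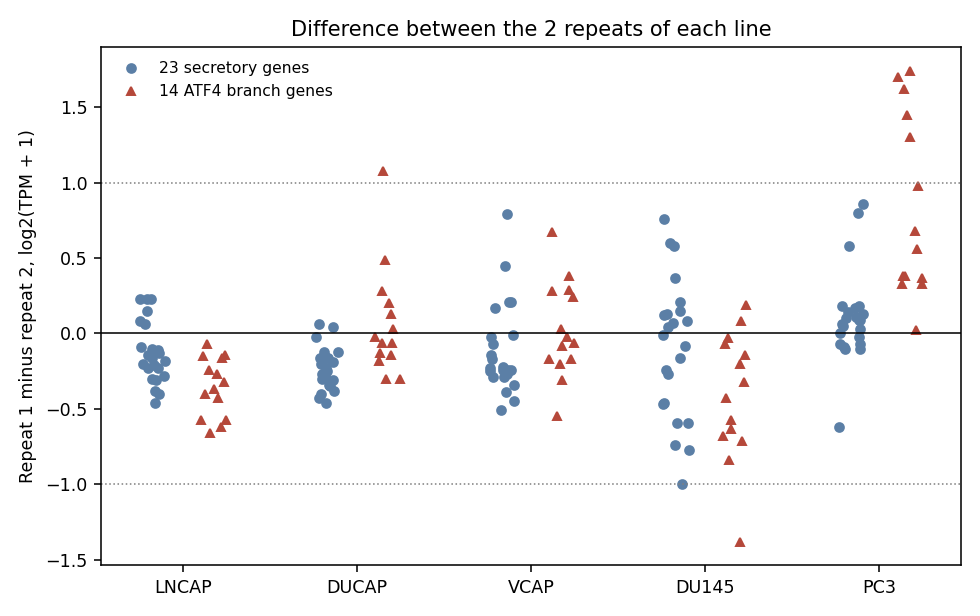
Repeat 1 minus repeat 2 in log2(TPM + 1) for the 37 genes in each line, circles for the 23 secretory-side genes and triangles for the 14 ATF4-side genes, with dotted lines at a 2-fold gap. The PC3 triangles reach 1.74 and lie at or above 0, while those of DU145 reach -1.38.

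Other genes of the same pathways were taken from lists compiled by function and counted on the deposited TPM only, without rescaling. Over all tested genes 38.2% were higher in LNCAP, 57.7% lower in DUCAP and 46.6% lower in VCAP. The 13 aminoacyl-tRNA synthetase and tRNA export genes, which load amino acids onto tRNA and are known ATF4 targets, were higher in LNCAP in 13 of 13, with 0 lower, and lower in DUCAP in 12 and in VCAP in 11, with 0 higher in either. AARS1, the alanine enzyme, was at 197 and 260 TPM in LNCAP, 176 and 208 in DU145, 116 and 87.2 in PC3, 30.0 and 35.4 in DUCAP and 39.8 and 43.5 in VCAP. Of 9 tested amino acid transporters, 7 were lower in DUCAP and 5 in VCAP, and 6 were higher in DU145 and 7 in PC3. The backgrounds in that order were 57.7%, 46.6%, 40.7% and 43.2%, and the VCAP count was near its own. SLC7A5, the large neutral amino acid carrier, was at 78.1 and 137 TPM in DU145, 52.5 and 30.3 in PC3, 4.27 and 5.59 in LNCAP and 0.17 to 0.41 in DUCAP and VCAP. LNCAP, highest in most ATF4-side members, lay between the other lines for this carrier (-0.62, adjusted p = 0.065).

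The other amino acid and one-carbon enzymes were higher in LNCAP in 5 of 12, near the background of 38.2%, and lower in DUCAP in 10, beside a background of 57.7%. CBS, which starts transsulfuration, was at 226 and 269 TPM in LNCAP and at 9.47 and 5.30 TPM in PC3. Of 11 tested further ATF4 target regulators 7 were higher and 2 lower in LNCAP, beside backgrounds of 38.2% and 24.2%. GDF15, a secreted stress cytokine, was at 481 and 549 TPM in LNCAP, 337 and 144 in PC3, 23.1 and 10.5 in DUCAP, 6.36 and 3.81 in VCAP and 1.58 and 0.60 in DU145, so DU145 was lowest here while DDIT4 and PSAT1 were high in it. PPP1R15A, also called GADD34, the phosphatase subunit that reverses eIF2 alpha phosphorylation, was lowest in LNCAP, at 3.66 and 3.84 TPM against 9.75 to 76.9 TPM in the other 8 samples. It fell by 2.7 on the log2 scale there (adjusted p = 0.00014). PPP1R15A also belongs to a list of 11 genes: eIF2 alpha, its kinases and phosphatase subunits, and the subunits of the exchange factor eIF2B. In that list 2 were higher and 2 lower in LNCAP, beside backgrounds of 38.2% and 24.2%. In PC3 8 were higher and 0 lower, beside 43.2% and 24.7%.

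On the secretory side, the 20 genes of ER to Golgi transport were lower in DUCAP in 19 and higher in PC3 in 15, with 0 in the opposite direction in either. For this list and the next ones, the backgrounds were 57.7% of all tested genes lower in DUCAP and 46.6% in VCAP. Those for higher genes were 38.2% in LNCAP, 40.7% in DU145 and 43.2% in PC3. KDELR3, a receptor that returns ER proteins from the Golgi, was at 54.6 and 57.6 TPM in PC3, 67.0 and 45.2 in DU145 and 0.41 to 4.24 in the other 6 samples. The 22 genes of translocation and signal peptide processing were lower in DUCAP in 18 and in VCAP in 15 and higher in PC3 in 16 and in LNCAP in 13. Of 25 other ER folding enzymes 18 were lower in DUCAP, 16 were higher in PC3, and SIL1, an exchange factor for HSPA5, was highest in LNCAP at 84.9 and 92.2 TPM and lowest in PC3 at 8.82 and 10.1 TPM. Of 17 other ER-associated degradation genes 13 were lower in DUCAP, 12 were higher in DU145 and 11 in PC3. The median log2 fold changes of these 4 lists in DUCAP were -0.94, -0.61, -0.63 and -0.82 in the order given, beside -0.54 over all genes. All 6 tested genes among the other ER membrane factors and proteases were higher in PC3, led by CREB3L1, a relative of CREB3L4, at 58.1 and 108 TPM in PC3 against 0.12 to 5.63 TPM in the other 8 samples. CREB3L1 was thus high where CREB3L4 was at its lowest line mean.

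Stress genes of other compartments were counted for comparison. Of 10 cytosolic heat shock genes 8 were lower in DUCAP and in VCAP and 8 were higher in PC3. HSPB1, a small heat shock protein, was at 254 to 686 TPM in LNCAP, DU145 and PC3 and listed at 0 to 0.30 TPM in every DUCAP and VCAP sample. Of 8 mitochondrial unfolded protein genes 6 were higher and 0 lower in LNCAP, while 1 was higher and 2 lower in DUCAP. LONP1, the matrix protease, was the largest change of that list in LNCAP (1.46, adjusted p = 3.9e-05). These counts stand beside the same backgrounds as the members, 57.7% lower in DUCAP, 46.6% lower in VCAP, 43.2% higher in PC3 and 38.2% higher in LNCAP.

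In the RefSeq annotation (GRCh38.p14) ATF4 lies at chr22:39520559-39522686, DDIT4 at chr10:72273924-72276036, CHAC1 at chr15:40953471-40956512, PCK2 at chr14:24094171-24104125, HSPA5 at chr9:125234853-125241343, HERPUD1 at chr16:56932142-56944864, CRELD2 at chr22:49918634-49927537 and ASNS at chr7:97851677-97928441. Each TPM sums the exons of a whole gene, and no transcript or splice form was read. The ASNS window printed above lies inside the annotated gene, upstream of its selected start.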

How the data were processed

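RNA-seq of 10 cultures (5 lines, 2 biological repeats each) was analysed, and groups and repeat numbers were taken from the sample labels. Per the labels and the study's methods, the libraries were polyA-selected and stranded, and the authors checked reads with FastQC 0.11.9, trimmed them with Trim Galore 0.6.5, aligned them with STAR 2.7.2b to GRCh38 (hg38) and quantified genes with RSEM 1.3.3. The authors deposited 1 table of TPM (transcript shares, normalised for length and library total), with 60642 genes and column sums of 982880 to 991998. The study's methods give only an approximate range of read pairs for its libraries. TPM keep no depth, so the depth of each sample is unknown, intervals and floors are not given, and precision rests on 2 repeats per line.

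The 17520 genes that reached 1 TPM in 2 or more samples were fitted on log2(TPM + 1) with limma 3.58.1 (R 4.3.3) and a mean for every line, a trend in the prior variance, 5 residual degrees of freedom and Benjamini-Hochberg adjustment over all tested genes at 0.05. All tests were two-sided. Fold changes are on the log2(TPM + 1) scale and understate the change of low genes. A log2 fold change was named first where its size was at least 1, and from each further list only its largest changes. Medians by role and gaps between repeats carry no test. Motifs were searched with Python 3.11.15 on both strands of RefSeq promoter sequences (GRCh38.p14). The fit was tested on simulated data.

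The members and lists were chosen with earlier results of these data known. Alternatives were a pseudocount of 0.1, no filter, a minimum of 5 TPM, quantile normalization, median-ratio scaling, leaving out mitochondrially encoded genes, no trend, a replicate block and leaving out each sample. Same-numbered samples of different lines did not deviate together (mean correlation 0.00922 over 10 pairs of lines, from -0.191 to 0.249), so the numbers do not pair the samples. The contrasts of treated cells and xenografts in the study were not analysed here, and some marker genes are not reported here.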

Additional observations from a re-analysis of the deposited data

How the results depend on the processing

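With higher and lower calls added together, the count of members called in each contrast stayed within 1.5 times of the reported count under every alternative run. The split between higher and lower was less stable. DU145 had 15 higher and 6 lower as reported, beside 40.7% and 22.3% of all genes. Median-ratio scaling made these 9 and 10, beside 30.3% and 32.1%. Quantile normalization made them 8 and 11, beside 28.0% and 35.9%. The counts with 1 sample left out, given next, stand without shares over all genes. Those shares also fell in a line's own contrast when 1 of its repeats was left out. Leaving out 1 sample gave 18 to 27 called in LNCAP, 27 to 32 in DUCAP, 21 to 26 in VCAP, 17 to 21 in DU145, 18 to 28 in PC3, 21 to 26 for LNCAP, DUCAP and VCAP against DU145 and PC3, and 34 to 36 for any difference. The replicate number as a block gave 25, 31, 26, 21, 28, 27 and 36 in the same order, and since the numbers do not pair the samples it is given only here. With a pseudocount of 0.1 the secretory minus ATF4 median moved to 1.16 in VCAP and to -0.67 in DU145, and the genes at least 2-fold apart between repeats became 2 in DUCAP and 1 in VCAP. In DU145 these became 1 after quantile normalization, median-ratio scaling or leaving out mitochondrial genes. The median difference ran, with 1 sample left out, from -1.28 to -1.15 in LNCAP, 0.47 to 0.71 in DUCAP, 1.07 to 1.18 in VCAP, -0.65 to -0.46 in DU145 and 0.40 to 0.70 in PC3. Role medians turned sign for the chaperones in LNCAP (-0.06 after median-ratio scaling) and VCAP (0.18 after quantile normalization, 0.19 after median-ratio scaling, 0.09 without mitochondrial genes), and for the sensors in DUCAP (0.35, 0.36 and 0.03 in that order). The cause was not tested. Of the log2 fold changes of at least 1, 19 of 632 refits with another setting and 22 of 790 with 1 sample left out lost their call and 0 turned direction.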
